A study of Xenopus laevis with 12 samples.

Results

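The genes described here are 5 transcription factor genes of the forebrain and eye field, otx2, six3, rax, pax6 and lhx2, in tissue labelled as neural crest from Xenopus laevis, a clawed frog. They were chosen by name, taking every row called otx2, six3, rax, pax6 or lhx2 with the suffix .L or .S. This frog is allotetraploid, and the suffixes mark the copies of a gene on the long and on the short chromosome of a pair, called homeologs. Of the 10 names, 8 were found at both stages, among 19252 genes with a row at 1 stage or both. The copies rax.L and rax.S were not analysed here.

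The study injected wild-type embryos at the 4-cell stage, per its design text into the right dorsal blastomere, with 60 ng of a morpholino, a synthetic antisense oligonucleotide. One arm received a morpholino against the microRNA miR-196a and the other a mismatch morpholino, a related sequence with changed bases that serves as the control. Embryos grew to Nieuwkoop and Faber (NF) stage 14 or 17, both within neurulation, and total RNA labelled as neural crest was sequenced. The 12 samples form 4 groups of 3, 1 group per arm and stage. All groups thus share the injection and the dose, and a morpholino placed in 1 blastomere reaches only the descendants of that cell. The batch label repeats the stage, so batch and stage cannot be told apart. The series title speaks of programmes of immature neural ectoderm, and comparing the arms asks here whether genes of the anterior neural plate changed with the morpholino.

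Neural tissue is patterned along the head-to-tail axis while the neural plate forms. Otx2 marks its anterior part and is needed for forebrain and midbrain. Within that region a group of homeodomain factors that includes Rax, Pax6, Six3 and Lhx2 defines the eye field, the single patch from which both retinae arise, and in Xenopus several of these factors induce ectopic eye tissue when supplied together. Neural crest arises at the lateral border of the neural plate, outside its most anterior rim, and the eye field factors are not among the classical crest specifiers.

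The values are the authors' own comparison of the arms at each stage, with each gene's normalised count averaged over the samples compared, its log2 fold change and standard error (SE), and p-values before and after adjustment. Per-sample values were not used here, so whether single samples of the arms overlap cannot be said for any gene. No label or header says which arm is the numerator of the fold change. Signs are kept as deposited, positive values are those with more transcript in the numerator arm, and which morpholino that is was not settled. Mean levels of each arm were computed from the mean and the fold change, on the assumption of arms of equal size, and are normalised counts that are not divided by gene length. An arm at or under 3 normalised counts is called at the floor. Depth per library is unknown. Over the genes tested, the log2 fold changes had a median SE of 0.52 at stage 14 and 0.47 at stage 17 by the authors' deposited tables.

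Both copies of pax6 and both copies of otx2 were higher in the numerator arm at both stages, by 2.30-fold to 4.72-fold. The 4 copies of six3 and lhx2 had low counts, and 0 of those with an adjusted p-value passed the threshold of 0.05 or had an unadjusted p-value under 0.05. Of the 8 copies, 7 had an adjusted p-value at stage 14 by the authors' deposited table, and 4 of these (57.1%) were positive with an adjusted p-value under 0.05, while 0 were negative. Over all genes tested at stage 14, 8.68% were past that threshold, 3.06% positive and 5.62% negative. The stage 17 counts were again 4 positive and 0 negative of 7 by the authors' deposited table, where 9.96% of all genes tested were past the threshold, 4.96% positive and 5% negative. For the members tested, the median log2 fold change was 2.09 at stage 14 and 1.75 at stage 17 by the authors' deposited tables, against 0.02 and -0.003 over all genes tested. Among the 6 copies tested at both stages, 4 were positive and past the threshold at both, a combination found in 1.4% of the genes tested at both stages. These 4 are copies of 2 genes, otx2 and pax6, from the same libraries, so that the shares do not count independent genes. The members were also chosen with earlier results of these data known, so setting these shares against all genes is not a test. An adjusted p-value threshold of 0.01 left 3 copies at stage 14 and 2 at stage 17, the latter both of pax6.

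**Figure D1:**
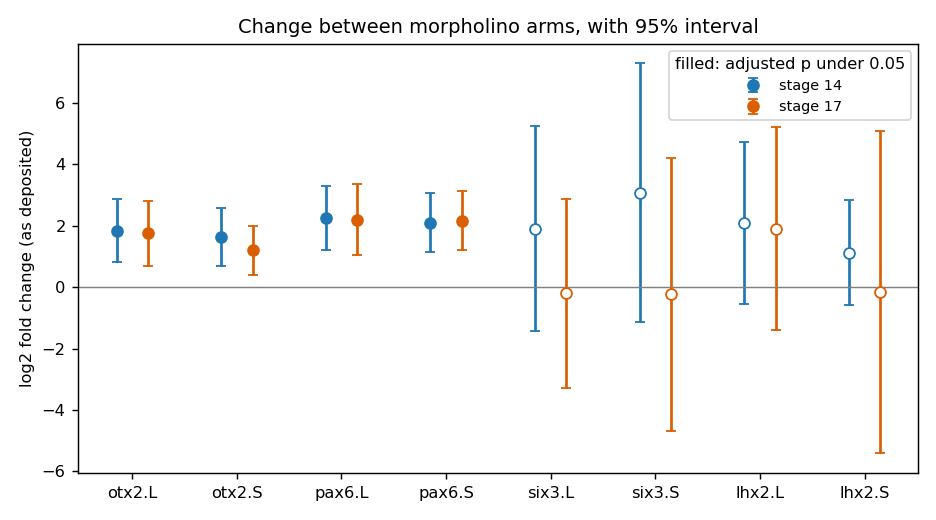
Log2 fold change between morpholino arms (vertical axis, as deposited) with its 95% normal interval for each copy at stage 14 (blue) and stage 17 (orange); filled points have an adjusted p-value under 0.05. The 8 values of otx2 and pax6 lie between 1.20 and 2.24 with intervals above 0, and every interval of six3 and lhx2 includes 0.

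Pax6 is a paired and homeodomain factor of the eye field and forebrain that is also used in lens and hindbrain. At stage 14 pax6.L had a computed level of 1101 normalised counts in the numerator arm and 233 in the denominator arm. The authors' deposited table gave pax6.L a log2 fold change of 2.24 (SE 0.53 and adjusted p = 8.17e-04). The other copy stood at 863 and 202 normalised counts, and the authors' deposited table gave pax6.S 2.09 (SE 0.49 and adjusted p = 6.61e-04). The 2 copies thus differed between arms by 4.72-fold and 4.27-fold. Ordered by p-value, pax6.S was number 512 and pax6.L number 538 of 17088 genes tested at stage 14.

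The stage 17 arms stood at 403 and 87.6 normalised counts for pax6.L and at 366 and 81.4 for pax6.S. The log2 fold change of pax6.L was 2.20 (SE 0.59 and adjusted p = 0.00437) by the authors' deposited table. For pax6.S the authors' deposited table gave 2.17 (SE 0.49 and adjusted p = 4.22e-04). These differences of 4.60-fold and 4.50-fold are nearly those of stage 14. The mean of the copies was lower at stage 17 than at stage 14, 246 against 667 for pax6.L and 224 against 533 for pax6.S by the authors' deposited tables. Each table was normalised on its own, and this drop was not tested.

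Otx2 is a homeodomain factor of the anterior neural plate and of the underlying anterior mesendoderm and the cement gland, the adhesive organ of the tadpole head. Its level at stage 14 was 1580 normalised counts in the numerator arm and 440 in the denominator arm for otx2.L. The authors' deposited table gave otx2.L a log2 fold change of 1.85 (SE 0.53 and adjusted p = 0.00860). For otx2.S the arms stood at 1621 and 525 normalised counts, with a log2 fold change of 1.63 (SE 0.48 and adjusted p = 0.0123) by the authors' deposited table. The arms of the copies thus differed by 3.59-fold and 3.09-fold.

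At stage 17 otx2.L stood at 761 normalised counts in the numerator arm and 226 in the denominator arm, and its log2 fold change was 1.75 (SE 0.54 and adjusted p = 0.0169) by the authors' deposited table. For otx2.S the arms stood at 525 and 228 normalised counts, with a log2 fold change of 1.20 (SE 0.41 and adjusted p = 0.0372) by the authors' deposited table. This 2.30-fold difference was the lowest among the 8 values of otx2 and pax6, and its adjusted p-value was the one nearest to the threshold. Neither copy of otx2 passed an adjusted p-value threshold of 0.01 at stage 17, and at stage 14 otx2.L did and otx2.S did not.

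**Figure D2:**
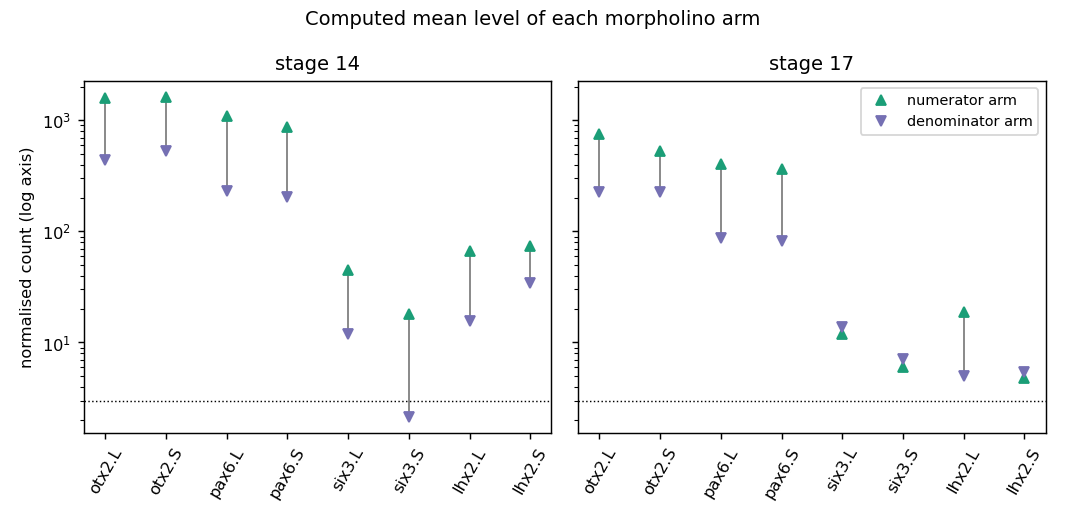
Computed mean level of the numerator arm (upward triangles) and the denominator arm (downward triangles) for each copy at both stages, in normalised counts on a log axis; the dotted line is the floor of 3. The arms of otx2 and pax6 are separated at both stages, and those of six3.L, six3.S and lhx2.S nearly coincide at stage 17.

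Six3 is a homeodomain factor of the most anterior neural plate that represses Wnt genes in the mouse forebrain. Its counts were low, with means of 28.2 for six3.L and 10.1 for six3.S at stage 14 by the authors' deposited table. The level of six3.L at stage 14 was 44.6 normalised counts in the numerator arm and 11.9 in the denominator arm, with a log2 fold change of 1.91 (SE 1.71) by the authors' deposited table. The authors' deposited table holds no p-value for that copy at stage 14, as is the case for 59 genes there. By default DESeq2, the tool named in the submitters' processing notes, withholds the p-value of a gene with an extreme count in 1 library, and whether that applied here was not tested. For six3.S the denominator arm was at the floor, with 2.14 normalised counts against 18.1, and the log2 fold change was 3.08 (95% interval -1.12 to 7.29, adjusted p = 0.473) by the authors' deposited table. At stage 17 the log2 fold changes were -0.21 (SE 1.57 and adjusted p = 0.969) for six3.L and -0.24 (SE 2.26 and adjusted p = 0.974) for six3.S by the authors' deposited table. The arms stood at 12.0 and 13.9 normalised counts for six3.L and at 6.01 and 7.08 for six3.S at that stage.

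Lhx2 is a LIM homeodomain factor needed, in the mouse, for eye and forebrain growth. The level of lhx2.L at stage 14 was 67.2 normalised counts in the numerator arm and 15.8 in the denominator arm, with a log2 fold change of 2.09 (SE 1.34 and adjusted p = 0.417) by the authors' deposited table. For lhx2.S the arms stood at 74.1 and 34.0 normalised counts, and the authors' deposited table gave 1.13 (SE 0.87 and adjusted p = 0.545). At stage 17 lhx2.L stood at 18.8 and 5.01 normalised counts, with a log2 fold change of 1.91 (SE 1.68 and adjusted p = 0.586) by the authors' deposited table. The copy lhx2.S averaged 5.09 normalised counts at stage 17, and its log2 fold change by the authors' deposited table was -0.17 (SE 2.68) with no adjusted p-value. The size of the change of lhx2.L was thus like that of pax6, with an SE more than 2 times larger.

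To pass the threshold, a copy of otx2 or pax6 needed a difference of 2.21-fold to 3.18-fold, depending on its SE. The copies of six3 and lhx2 with an adjusted p-value needed 5.64-fold (lhx2.S at stage 14) to 84.3-fold (six3.S at stage 17). With no adjusted p-value, six3.L at stage 14 and lhx2.S at stage 17 could not pass at any size of change. The 95% interval of lhx2.L at stage 14 ran from -0.54 to 4.72 on the log2 scale and that of six3.L at stage 17 from -3.29 to 2.88. A measured change of the size of that of pax6 would therefore have missed the threshold in any single copy of six3 or lhx2. The values do not show that these genes stayed level. With the copies of a gene combined by their inverse-variance mean, the log2 fold change of lhx2 at stage 14 was 1.41 (SE 0.73 and adjusted p = 0.245, normal test with Benjamini-Hochberg adjustment), also short of the threshold. This combination treats the copies as independent, although they come from the same libraries, so its SE may be too small.

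For pax6 and otx2 the copies had changes of the same sign at both stages, and their differences were smaller than the errors. The difference of the log2 fold changes, .L minus .S, was 0.15 (95% interval -1.27 to 1.56) for pax6 at stage 14 and 0.03 (-1.47 to 1.54) at stage 17. For otx2 it was 0.22 (-1.18 to 1.61) and 0.55 (-0.77 to 1.86). The copies of six3 and lhx2 were farther apart in 3 of 4 cases, with wide intervals. They differed by -1.17 (-6.54 to 4.20) for six3 and 0.97 (-2.17 to 4.10) for lhx2 at stage 14, and by 0.03 (-5.38 to 5.44) and 2.08 (-4.12 to 8.28) at stage 17, where the changes of lhx2.L and lhx2.S had opposite signs. By a normal test on the summed squared SE, with Benjamini-Hochberg adjustment over all pairs, 0 of the 3 member pairs tested at each stage differed, against 1.29% of 5333 pairs at stage 14 and 1.31% of 5353 at stage 17, and 0 had an unadjusted p-value under 0.05. The intervals leave room for differences of more than 2-fold. The .L copy made up 56.1% of the summed pax6 level in the numerator arm and 53.6% in the denominator arm at stage 14, and 52.4% and 51.8% at stage 17. For otx2 these shares were 49.4% and 45.6% at stage 14, and 59.2% and 49.8% at stage 17. How the authors' counting shared out reads that match both copies is not recorded, and the copies come from the same libraries, so that they are not independent measurements.

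Between the stages, the changes of pax6 and otx2 differed by less than their errors. Stage 17 minus stage 14, the log2 fold change of pax6.L differed by -0.04 (SE 0.79) and that of pax6.S by 0.08 (SE 0.69). The differences of otx2.L and otx2.S were -0.10 (SE 0.75) and -0.43 (SE 0.63). Of the 6 copies tested, 0 had a difference with an adjusted p-value under 0.05 by the normal test, 0 an unadjusted one, and the lowest adjusted p-value was 0.908, for six3.S. Over all genes tested at both stages, 1.51% passed. This test treats the stages as independent, and whether their samples were matched is not known. With copies combined, the 95% interval of the difference was -1.002 to 1.046 for pax6 and -1.27 to 0.61 for otx2, both on the log2 scale. These 2 intervals treat the copies as independent and may be too narrow. The largest measured difference was that of six3.S, -3.32 (95% interval -9.43 to 2.79), at means of 10.1 and 6.54 normalised counts by the authors' deposited tables.

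**Figure D3:**
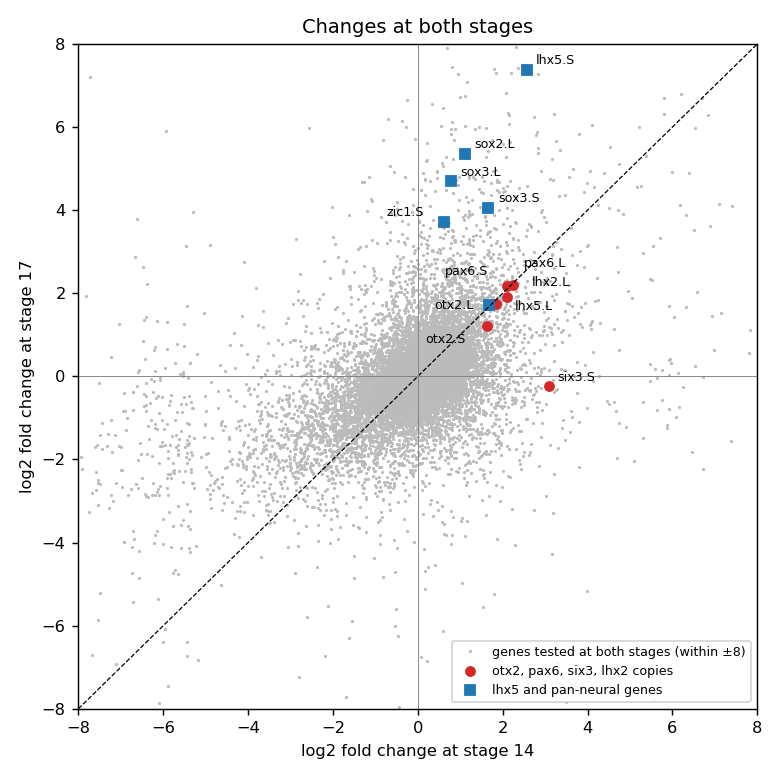
Log2 fold change at stage 14 (horizontal) against stage 17 (vertical) for the 16194 genes tested at both stages (grey, 55 of them outside the axes), the 6 copies of otx2, pax6, six3 and lhx2 tested at both (red) and lhx5, sox2, sox3 and zic1 copies (blue); the dashed line marks equal change. The copies of otx2, pax6 and lhx2 lie near the line, whereas sox2.L, sox3.L, sox3.S, zic1.S and lhx5.S lie above it.

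Pan-neural markers had positive changes at both stages, with a higher median at stage 17. The SoxB1 genes sox2 and sox3 encode factors of neural progenitors, and Zic1 acts in the neural plate and its border. In the authors' deposited tables the log2 fold change of sox3.S was 1.65 at stage 14 and 4.06 at stage 17, that of sox3.L 0.78 and 4.70, that of sox2.L 1.11 and 5.35, and that of zic1.S 0.62 and 3.72. The difference between stages passed the threshold for these 4 copies, with adjusted p-values of 2.20e-04, 2.03e-09, 0.00214 and 8.76e-06 by the normal test. These 4 copies were named for their low p-values at a stage, which favours a difference between stages. Whether their differences exceed those of pax6 and otx2 was not tested. Of the 9 pan-neural copies tested, those past the threshold, all positive, numbered 2 at stage 14 and 8 at stage 17, and the median log2 fold change was 0.76 and 2.39 by the authors' deposited tables. These counts are 22.2% and 88.9% of the copies tested, against 8.68% and 9.96% of all genes tested.

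Other genes of the forebrain were in part positive as well. Of 16 names, 22 copies were tested at stage 14 by the authors' deposited table, 3 were positive and past the threshold and 0 negative, with a median log2 fold change of 1.23. For stage 17 the counts were 3 positive and 0 negative of 18, with a median of 0.73 by the authors' deposited table. These calls are 13.6% and 16.7% of the copies tested, against 8.68% and 9.96% of all genes tested. By sign alone, 16 of 22 copies at stage 14 and 13 of 18 at stage 17 were positive. The summed level of the list at stage 14 was 6560 normalised counts in the numerator arm and 4421 in the denominator arm. At stage 17 the sums were 3583 and 2707. Among the negative copies at stage 14, named here after their values were seen, were sp8.S and dmbx1.S, at means of 660 and 580 normalised counts. Their log2 fold changes were -0.997 (SE 0.42 and adjusted p = 0.131) and -1.14 (SE 1.13 and adjusted p = 0.677) by the authors' deposited table. The 3 copies past the threshold at stage 14 were lhx5.L, lhx5.S and hesx1.L. Lhx5 is a LIM homeodomain factor of the forebrain, and lhx5.L had log2 fold changes of 1.68 (SE 0.42 and adjusted p = 0.00170) and 1.73 (SE 0.37 and adjusted p = 1.88e-04) at the stages by the authors' deposited tables, a pair of values like those of otx2.L. For lhx5.S the authors' deposited table gave 2.56 (SE 0.47 and adjusted p = 3.07e-06) at stage 14. At stage 17 the denominator arm of lhx5.S was at the floor, with a log2 fold change of 7.38 (95% interval 5.66 to 9.09, adjusted p = 3.03e-14) by the authors' deposited table. Stage 17 minus stage 14, the log2 fold changes differed by 4.81 (SE 0.99 and adjusted p = 4.30e-04 by the normal test) for lhx5.S and by 0.05 (SE 0.56 and adjusted p = 0.998) for lhx5.L.

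Hesx1 is a homeodomain repressor of the anterior neural ridge and pituitary. The level of hesx1.L at stage 14 was 251 normalised counts in the numerator arm and 15.9 in the denominator arm, with a log2 fold change of 3.98 (SE 0.90 and adjusted p = 3.69e-04) by the authors' deposited table. At stage 17 the authors' deposited table gave hesx1.L 3.13 (SE 1.18 and adjusted p = 0.0709). The copy hesx1.S averaged 14.9 normalised counts at stage 14 and 3.04 at stage 17, and did not pass at stage 14 (adjusted p = 0.255) by the authors' deposited tables. The zinc finger gene fezf2.S also passed at stage 17 (adjusted p = 0.0341 by the authors' deposited table), with its denominator arm at the floor and a 95% interval of its log2 fold change of 1.81 to 8.65.

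The copies of otx1, the paralogue of otx2, did not pass the threshold at either stage. The copy otx1.L had log2 fold changes of 0.52 (SE 0.86 and adjusted p = 0.845) at stage 14 and 0.08 (SE 0.41 and adjusted p = 0.951) at stage 17 by the authors' deposited tables, at means of 1301 and 747 normalised counts. For otx1.S they were 1.58 (SE 0.72, unadjusted p = 0.0287, adjusted p = 0.183) and 0.80 (SE 0.72 and adjusted p = 0.594) by the authors' deposited tables. The 95% interval of otx1.L at stage 17, -0.73 to 0.89, overlaps those of otx2.L (0.70 to 2.80) and otx2.S (0.41 to 1.996), and the difference of the paralogues was not tested.

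Most further eye field and optic genes had low counts. Of 15 names, 8 copies were tested at each stage by the authors' deposited tables, with medians of 1.31 at stage 14 and -0.16 at stage 17. At stage 14, 0 passed the threshold by the authors' deposited table and 0 had an unadjusted p-value under 0.05, and at stage 17 the only one past the threshold was foxd1.L (adjusted p = 0.0112), a forkhead gene of the temporal retina and forebrain. The denominator arm of foxd1.L at stage 17 was at the floor, and the 95% interval of its log2 fold change was 2.01 to 7.43. At an unadjusted p-value under 0.05, 4 of the 8 copies at stage 17 passed by the authors' deposited table, and the other 3, named here after their values were seen, were negative. They were tbx2.L at -1.33 (SE 0.59 and adjusted p = 0.149) and tbx2.S at -1.64 (SE 0.72 and adjusted p = 0.140), copies of a T-box gene, and mab21l1.L at -6.27 (SE 3.16 and adjusted p = 0.231) by the authors' deposited table. The tbx2 copies had means of 267 and 175 normalised counts at stage 17 by the authors' deposited table, against 6.36 for mab21l1.L. The summed level of the list was 143 normalised counts in the numerator arm and 46.8 in the denominator arm at stage 14, and 363 against 716 at stage 17. Most of the stage 17 sum came from tbx2, with 152 against 382 normalised counts for tbx2.L and 84.8 against 265 for tbx2.S. The direction of that sum, opposite to that of otx2 and pax6, is thus that of tbx2 and not of the list as a whole. At stage 17 six3.L, six3.S and lhx2.S were slightly negative too, within their errors. The eye field gene nr2e1.S, an orphan nuclear receptor gene, had log2 fold changes of 2.95 (SE 1.56 and adjusted p = 0.287) and 2.28 (SE 2.23 and adjusted p = 0.636) by the authors' deposited tables. Its copy nr2e1.L and the optic gene six6.S were measured at stage 14 only, at means of 2.77 and 8.52 normalised counts by the authors' deposited table, too few to show a change. The eye field gene tbx3 was not analysed here.

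Organizer genes and secreted antagonists of the anterior axis changed in both directions at stage 14. Of 21 copies tested by the authors' deposited table, 1 was positive and 3 negative past the threshold, with a median of 0.77. The Wnt, Nodal and BMP antagonist cer1.S was negative at -2.51 (SE 0.54 and adjusted p = 1.69e-04) by the authors' deposited table, as was lhx1.S, a LIM homeodomain gene of the organizer and kidney, at -4.09 (SE 1.07 and adjusted p = 0.00326). The positive copy was foxa4.L, a forkhead gene of the axial midline (adjusted p = 0.0280 by the authors' deposited table), with the denominator arm at the floor and a 95% interval of its log2 fold change of 2.71 to 12.1. At stage 17, 3 of 19 copies passed, all positive, with a median of 2.49 by the authors' deposited table. They were the Wnt antagonists sfrp2.L at 2.75 (SE 0.57 and adjusted p = 6.71e-05), sfrp1.S at 3.25 (SE 0.85 and adjusted p = 0.00324) and dkk1.L at 2.49 (SE 0.87 and adjusted p = 0.0452) by the authors' deposited table. The calls are 19.0% of the copies tested at stage 14 and 15.8% at stage 17, against 8.68% and 9.96% of all genes tested. The other copies of these Wnt antagonist genes did not pass at stage 17 by the authors' deposited table. These were sfrp2.S at 0.84 (SE 1.01 and adjusted p = 0.719), sfrp1.L at -1.35 (SE 1.13 and adjusted p = 0.558) and dkk1.S at 2.60 (SE 1.35 and adjusted p = 0.252). The copy sfrp2.S had a mean of 1184 normalised counts, against 368 for sfrp2.L.

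Genes of the midbrain and hindbrain, most of which act behind the eye field, were negative where they passed at stage 14. Of 20 copies tested by the authors' deposited table, 4 were past the threshold, all negative, with a median log2 fold change of -0.54. Among them were hoxb1.S at -1.94 (SE 0.33 and adjusted p = 5.37e-07) and mafb.L at -4.55 (SE 0.97 and adjusted p = 1.16e-04) by the authors' deposited table, both hindbrain genes. The numerator arm of pax8.S, a paired factor gene of the otic and kidney fields as well as the midbrain-hindbrain boundary, was at the floor at stage 14, and the 95% interval of its log2 fold change was -15.5 to -6.65. At stage 17, 4 copies were positive and 1 negative of 20 by the authors' deposited table, with a median of 0.67. They included fgf8.S at 4.70 (SE 0.88 and adjusted p = 7.73e-06) and pax2.L at 2.45 (SE 0.66 and adjusted p = 0.00509), while gbx1.S was negative at -1.38 (SE 0.44 and adjusted p = 0.0225) by the authors' deposited table. The calls are 20% of the copies tested at stage 14 and 25% at stage 17, against 8.68% and 9.96% of all genes tested. The other fgf8 copy, fgf8.L, did not pass at stage 17, at -0.46 (SE 0.72 and adjusted p = 0.803) by the authors' deposited table. Its mean was 124 normalised counts, against 58.6 for fgf8.S. The midbrain gene en2 and the hindbrain gene egr2 had values within their errors of 0 by the authors' deposited tables, from -1.66 (SE 2.13) for en2.L at stage 17 to 0.52 (SE 1.02) for en2.S at stage 14. The hindbrain gene gbx2 was not analysed here.

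**Figure D4:**
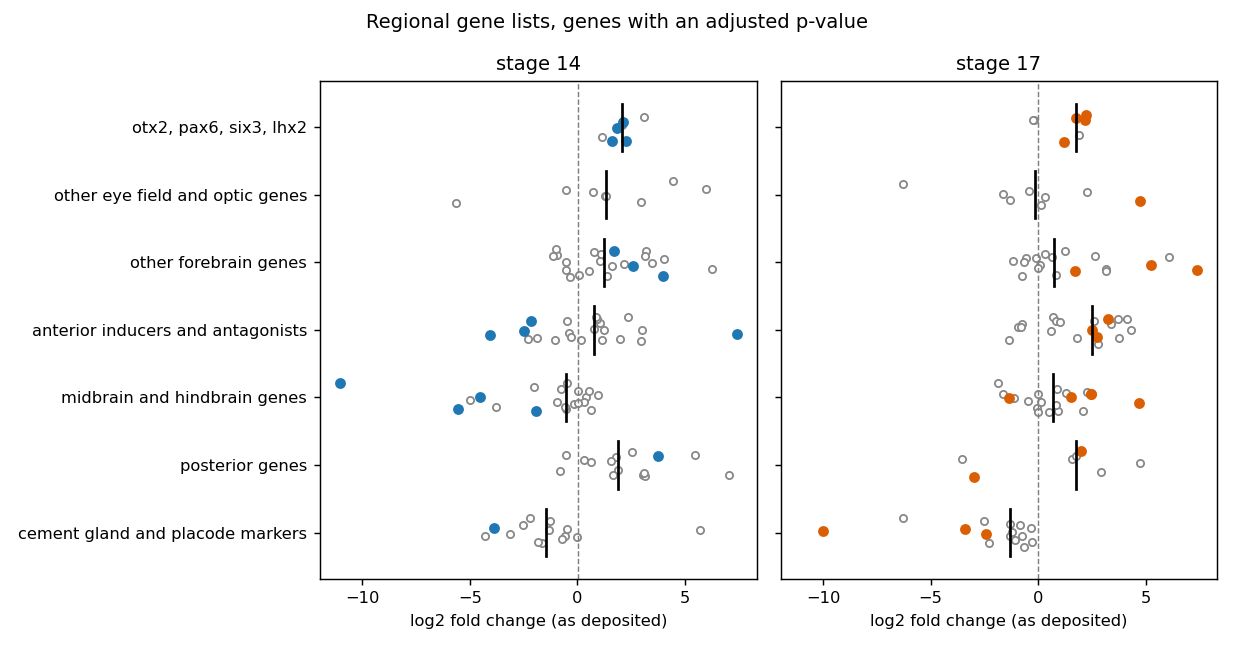
Log2 fold change (horizontal axis, as deposited) of the genes with an adjusted p-value in the member group and 6 further gene lists at stage 14 (left) and stage 17 (right); filled points have an adjusted p-value under 0.05, black bars are list medians and the dashed line is the median of all genes tested. The filled points of the members and of the forebrain list are all positive at both stages, and those of the midbrain and hindbrain list are all negative at stage 14. The posterior list has medians of 1.88 at stage 14 and 1.78 at stage 17, near the members' 2.09 and 1.75.

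Markers of other tissues moved with the same contrast, and in bulk tissue fewer cells of a type and less RNA per cell cannot be told apart. Of the neural crest markers snai2, sox9, sox10, foxd3 and tfap2b, all 10 copies were measured. By the authors' deposited tables their means ran from 68.4 to 5066 normalised counts at stage 14 and from 650 to 11745 at stage 17. Their presence does not settle the tissue label. The summed epidermal levels given below were higher than the summed crest levels in both arms at both stages. These sums are over different genes and are not divided by gene length, so they do not measure shares of cell types. The keratin gene krt70.S alone stood at 80690 normalised counts in the denominator arm at stage 14. At stage 14, 9 of the 10 were negative and past the threshold, with a median log2 fold change of -3.54 by the authors' deposited table, with the lowest p-values for sox9.S at -3.07, snai2.L at -3.15 and tfap2b.L at -3.79. By size the lowest were sox10.S at -7.31 and sox10.L at -4.99 by the authors' deposited table. Their summed level was 2668 normalised counts in the numerator arm and 25707 in the denominator arm. At stage 17, 3 of 10 were negative and past the threshold, with a median of -0.73, namely sox10.L at -1.87, snai2.S at -1.75 and sox10.S at -1.38 by the authors' deposited table, and the summed levels were 28664 and 55481. The crest calls are 90% of the copies tested at stage 14 and 30% at stage 17, against 8.68% and 9.96% of all genes tested. No crest marker was at 0, and 1, sox10.S at stage 14, had its numerator arm at the floor.

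Epidermal markers were negative too, with 5 of 8 copies tested past the threshold at stage 14 and 4 of 9 at stage 17, and medians of -2.53 and -1.03 by the authors' deposited tables. The epidermal calls are 62.5% and 44.4% of the copies tested, against 8.68% and 9.96% of all genes tested. By lowest p-value the epidermal markers were led at stage 14 by itln1.L, krt70.S and krt12.5.S, and at stage 17 by grhl3.S, itln1.L and krt12.5.S. The summed epidermal level was 24734 normalised counts in the numerator arm and 132565 in the denominator arm at stage 14, and 55481 and 150042 at stage 17. The members' summed level went the other way, with 5370 against 1463 normalised counts at stage 14 and 2097 against 655 at stage 17. Most of these sums came from otx2 and pax6. The summed six3 level at stage 17 was 18.0 against 21.0 normalised counts. Genes of cement gland and placodes, tissues that also use otx2, six3 or pax6, had 0 positive copies past the threshold at either stage, 1 negative of 14 at stage 14 and 3 negative of 15 at stage 17, with medians of -1.48 and -1.31 by the authors' deposited tables. These calls are 7.14% and 20% of the copies tested, against 8.68% and 9.96% of all genes tested, so the stage 14 count is near the share over all genes. The cement gland genes ag1.L and ag1.S had log2 fold changes of -2.21 (SE 1.04 and adjusted p = 0.202) and -2.54 (SE 1.06 and adjusted p = 0.131) at stage 14 by the authors' deposited table. What part a different make-up of the tissue has in the values of otx2 and pax6 was not tested.

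The genes whose pair of changes was most like that of the members were sought among 9973 genes with a mean of at least 100 normalised counts at both stages. The distance was that of the log2 fold changes at the 2 stages to the medians of the 6 copies tested at both stages, 2.09 and 1.83. The nearest were mthfd2l.S (2.16 and 1.88), marveld2.L (1.99 and 1.83), hinfp.L (2.17 and 1.69), gtpbp2.L (2.28 and 1.76) and rrm1.L (1.87 and 1.88) by the authors' deposited tables, at distances from 0.083 to 0.23. None of these 5 is in a list used here, and 2 comparisons are too few to set a likeness apart from the many genes with positive changes.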

How the data were processed

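Per the submitters' processing notes, STAR 2.7.3a and DESeq2 were used; genome build, annotation, counter and filters are not given in the sources used here, and the library kit was unstranded, per the labels' protocols. The authors deposited, per stage, a mean normalised count (read here as a signal scaled between libraries, which the headers do not state), a log2 fold change and its SE, their ratio as a score, and each p-value before and after adjustment. The tests planned for counts were replaced, as planned, by these adjusted p-values. At stage 17 the ratio of adjusted p to p of the first gene is 22197, above the 18519 genes with a p-value in the table, so adjusted p-values rest on more genes than were analysed here. The shares over all genes tested at stage 17 cover only the genes analysed here, and the share over the larger set is unknown.

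Python 3.11.15 with scipy 1.17.1 computed stage and copy differences (normal test on the SEs, Benjamini-Hochberg over all genes or pairs), tested on simulated data. Normal intervals are at 95%. Depth per library is unknown. Nothing says whether samples came from separate clutches, so p-values may measure technical spread only. Genes named were the members, 10 fixed genes, up to 3 list genes past the threshold per stage by lowest p-value, and the 5 most like. Some genes that this rule names are not reported here. Members and lists were chosen with earlier results of these data known. Symbols of all members matched the RefSeq table of Xenopus_laevis_v10.1; no coordinates are printed, since the build is not stated.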

Additional observations from a re-analysis of the deposited data

Results flagged for a closer look

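For 15 of the 53 named genes tested, the log2 fold change differed between the stages (stage 17 minus stage 14, normal test, adjusted p-value under 0.05), all towards more positive values at stage 17. Over all genes tested the share was 1.51%, but most of the named genes were chosen for a low p-value at 1 stage, which favours a difference between stages, so that nothing is read from the count. None of the 15 is a copy of otx2, six3, pax6 or lhx2. Among anterior genes the differences were 4.81 for lhx5.S, 6.84 for lhx1.S, 3.19 for cer1.S and 3.73 for sfrp1.S. Among midbrain, hindbrain and posterior genes they were 4.41 for fgf8.S, 2.78 for hoxb1.S, 9.19 for pax8.S and 2.52 for wnt8a.L. The pan-neural copies differed by 4.24 (sox2.L), 3.92 (sox3.L), 2.42 (sox3.S) and 3.10 (zic1.S), and the crest copies by 2.23 (snai2.L), 5.93 (sox10.S) and 2.44 (sox9.S). An arm was at the floor at 1 stage for lhx5.S, pax8.S and sox10.S, so that the sizes of their differences are uncertain.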

How the results depend on the processing

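Other adjusted p thresholds, other sets of genes behind the adjustment, centring on the median of all genes, a minimum size of change and combined copies were tried. Every called copy of pax6 stayed past the threshold under every setting run on it, and the adjusted p-values of the called copies of pax6 and otx2 ranged from 3.35e-04 to 0.0383. At 0.01, otx2.S at stage 14 and both otx2 copies at stage 17 missed the threshold. The members past it then numbered 2 at stage 17. With copies combined they were 2 genes, otx2 and pax6, at each stage, because 1 value then stands for 2 copies. At 0.01 the list counts moved to 2 for inducers and antagonists, 0 for posterior genes and 0 for cement gland and placode markers at stage 14, and to 0 for eye field and optic genes, 2 for midbrain and hindbrain genes, 1 for posterior genes and 2 for epidermis markers at stage 17, as a stricter threshold must lower them. The other 73 counts stayed within 1.5 times the reported ones, and 0 results changed sign. Replicates could not be left out in turn, because values per sample were not used here. No paired analysis was run, because values per sample were not used. The groups share no replicate numbers, which does not tell whether samples were matched between arms or stages. Low counts limit six3 and lhx2 most.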

Other observations

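Of 15 copies of genes of the trunk and tail tested at stage 14 by the authors' deposited table, 1 was positive and past the threshold and 0 negative, with a median log2 fold change of 1.88. It was cdx4.S, a caudal homeobox gene of the trunk and tail, at 3.77 (SE 1.24 and adjusted p = 0.0328) by the authors' deposited table. At stage 17, the median of the 7 tested was 1.78 by the authors' deposited table, and 1 was positive, wnt8a.L with a 95% interval of 0.96 to 3.04 (adjusted p = 0.00398), and 1 negative, tbxt.S, the mesodermal T-box gene, at -2.98 (SE 0.99 and adjusted p = 0.0322) by the authors' deposited table. The copy cdx4.S had no p-value at stage 17 by the authors' deposited table, which gave it a log2 fold change of 8.45 (SE 2.40, 95% interval 3.75 to 13.2), with 141 normalised counts in the numerator arm and the denominator arm at the floor. The calls are 6.67% of the copies tested at stage 14, under the 8.68% of all genes tested. At stage 17 they are 28.6%, against 9.96%. The medians of these trunk and tail genes were near those of the members, 2.09 at stage 14 and 1.75 at stage 17. A positive median was thus not particular to anterior genes.

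The notochord homeobox gene not was positive at stage 14 in both copies, at 3.57 (SE 0.70 and adjusted p = 1.82e-05) for not.L and 4.11 (SE 1.02 and adjusted p = 0.00149) for not.S by the authors' deposited table. In the list of muscle, notochord and endoderm markers, 2 copies were positive and 1, myod1.S (adjusted p = 0.0493), negative of 3 tested at stage 14, and 0 of 3 passed at stage 17 by the authors' deposited tables, where 1 had an unadjusted p-value under 0.05. The copy myod1.S had a mean of 9.03 normalised counts by the authors' deposited table, with its numerator arm at the floor, and its call was lost with Benjamini-Hochberg adjustment over all genes with a p-value (adjusted p = 0.0524) and with a mean of at least 10 required.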
